A study of Mus musculus with 30 samples.

Results

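Genes of the cell cycle, kinesin and centromere families were followed in leukocytes from the peripheral blood of inbred DBA/2 mice, either untreated or given cyclophosphamide. The members are the array's genes whose symbols begin with Cdc, Cdk, Ccn, Kif, Cenp, Aurk, Bub, Plk, Anapc or Smc followed by the letter or number that marks these families, except Cdc45, Cdkn1a and Smc4, which the rule leaves out. There were 104 such genes on the array, and 47 of them (45.2%) could be tested, with 3 or more values in each 4-sample group and 2 or more at day 5. Of the array's 13027 features, which are genes or unnamed probes, 6515 met the same filter. The rule is written in names and the presence of values, but it was chosen with earlier results of these data known. It also takes in genes that share a name but not a role. Of the 47, 6 are kinesins of cargo transport and the like. Another 6 carry the name of Cdc42, Cdc37 or Cdc40 and lie outside the cell cycle machinery. Some genes named for CDKs, such as Cdk5rap1, lie outside it as well.

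The 15 blood samples were independently harvested. They comprised 4 from untreated mice and 4, 4 and 3 from mice bled 1, 2 and 5 days after an intraperitoneal dose of 83 mg per kg cyclophosphamide, an alkylating drug that damages DNA and is toxic to dividing cells. Genotype is given only as the strain, and the labels used here give no age. Each sample, labelled with Cy5, was hybridised against pooled DBA/2 bone marrow cells labelled with Cy3. One label calls this pool untreated and another names a treatment of 83 mg per kg cyclophosphamide for it, so its treatment is not settled here. A value is therefore a log ratio of blood leukocytes over bone marrow, taken as log2, since no base is stated. A value of 0 means an equal signal in both, and the size of a ratio cannot be compared between genes as an amount of RNA.

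A dividing cell passes through a fixed order of steps that these families carry out. Cyclins switch on cyclin-dependent kinases (CDKs), and CDK inhibitors hold them back. Licensing factors load the replication helicase on DNA before it is copied, and SMC proteins then hold and fold the copied chromosomes. At mitosis the centromere proteins form the platform for the spindle, mitotic kinesins move and shape the spindle, the Polo and Bub kinases time these events and guard them, and the anaphase-promoting complex, a ubiquitin ligase, ends mitosis by marking cyclins for destruction. Bone marrow holds the dividing precursors of blood cells, while most leukocytes that circulate have left the cycle.

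Array columns were centred near 0, so a change of a gene is a change relative to the other genes on the array. Between 5650 and 9694 features had a value in a sample, and 44 to 47 of the members did. The interquartile range of the log2 ratios of a sample lay between 0.36 and 0.74. It was narrowest in untreated replicate 2, at 0.36, and in day 2 replicate 1, at 0.40. The label of the tissue was checked on cell type markers: 2 of 2 T cell, 4 of 4 B cell, 3 of 3 natural killer cell and 4 of 4 monocyte markers that could be tested had a mean above 0 in untreated blood, as did 5 of 5 platelet markers, while 2 of 5 mature neutrophil markers (list median -1.26) and 0 of 3 neutrophil precursor markers did. In blood samples of mixed cells, fewer cells of a type and less RNA per cell cannot be told apart.

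In untreated blood the members tended to read lower than in marrow. Of the 47, 33 (70.2%) had an untreated mean below 0, against 52.4% of all tested features. A mean below -1, which is less than 1 part in blood to 2 in marrow, was found for 7 members (14.9%) against 2.21% of features, and 0 members had a mean above 1. The lowest was Cdk1, the kinase that drives entry into mitosis, with an untreated mean of -3.47 ± 0.81 (SD, n = 4). Next came Cenpk, a centromere protein, at -2.98 ± 0.92 (SD, n = 4). The median over the members was -0.25, against -0.02 over all features. These are levels against the reference and carry no test.

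Genes of mitosis are known to share promoter letters, among them the cell cycle genes homology region (CHR, searched as TTTGAA) and the CCAAT box (searched as CCAAT), so the promoters of the members were read from the RefSeq table for GRCm38.p6. The table gives 250 bases before to 50 bases after each start, and it held 56 promoters of 46 members. With both strands searched, CHR letters were found in 12 of the 46 genes (26.1%), against 20.2% of the 27025 genes in the table (17.9% of its promoters). CCAAT letters were found in 24 (52.2%), against 41.1% of genes (37.4% of promoters). Both stood in the same promoter in 5 members (10.9%), against 7.97% of genes (6.95% of promoters). Those 5 were Cdk1, Cdc20, Bub1b, Plk1 and Kif11, all of them genes of mitosis. The promoters of Cdk1 (chr10:69352863-69353162, minus strand), Cdc20 (chr4:118437294-118437593, minus strand), Bub1b (chr2:118597961-118598260, plus strand) and Plk1 (chr7:122159185-122159484, plus strand) are shown as examples from these 5. They read 5′ to 3′ along the gene, with both kinds of letters in capitals on either strand (TTTGAA or TTCAAA, and CCAAT or ATTGG). No match overlapped another.
Cdk1: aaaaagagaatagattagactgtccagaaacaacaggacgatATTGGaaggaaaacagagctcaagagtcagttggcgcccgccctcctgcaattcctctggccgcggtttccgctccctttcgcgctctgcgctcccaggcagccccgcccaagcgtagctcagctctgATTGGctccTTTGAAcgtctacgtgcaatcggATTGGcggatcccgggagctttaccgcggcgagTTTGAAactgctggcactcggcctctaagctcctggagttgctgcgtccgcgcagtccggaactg
Cdc20: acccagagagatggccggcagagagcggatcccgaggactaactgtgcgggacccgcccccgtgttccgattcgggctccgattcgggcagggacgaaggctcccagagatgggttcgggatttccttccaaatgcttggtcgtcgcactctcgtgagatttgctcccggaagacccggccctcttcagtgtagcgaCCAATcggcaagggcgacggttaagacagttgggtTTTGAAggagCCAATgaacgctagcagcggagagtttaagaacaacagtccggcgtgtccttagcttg
Bub1b: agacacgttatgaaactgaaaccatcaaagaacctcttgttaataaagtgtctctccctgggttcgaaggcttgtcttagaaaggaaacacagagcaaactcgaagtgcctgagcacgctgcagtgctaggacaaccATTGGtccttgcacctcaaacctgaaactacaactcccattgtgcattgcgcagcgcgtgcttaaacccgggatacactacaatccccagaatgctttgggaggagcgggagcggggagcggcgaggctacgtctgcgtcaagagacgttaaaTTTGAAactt
Plk1: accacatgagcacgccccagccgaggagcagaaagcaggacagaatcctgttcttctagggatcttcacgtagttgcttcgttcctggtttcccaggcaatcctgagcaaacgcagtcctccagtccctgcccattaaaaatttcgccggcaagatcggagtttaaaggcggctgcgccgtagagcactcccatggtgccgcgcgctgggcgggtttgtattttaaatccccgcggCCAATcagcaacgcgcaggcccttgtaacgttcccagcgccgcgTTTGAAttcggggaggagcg
The Cdk1 promoter held 2 CHR matches and 3 CCAAT matches, Cdc20 1 and 2, and Bub1b and Plk1 1 and 1. A match is a run of letters, not a measured site.

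Samples of a group differed widely in some members. Cdc20, which activates the anaphase-promoting complex, had a pooled within-group SD of 0.94, wider than 99.7% of tested features. Cdk1 had 0.78, the spindle motor Kif11 0.75, the spindle checkpoint kinase Bub1b 0.69, the origin-firing kinase Cdc7 0.63, the centromere subunit Cenpk 0.62 and the CDK inhibitor Cdkn2c 0.59. These 7 of 47 members (14.9%) were above 0.5, against 3.82% of features. Technical replicates of a sample differed in these genes as well. The median absolute difference ran from 0.14 for Cenpk to 0.44 for Kif11. The largest difference was 1.92 for Kif11, 1.32 for Cdc20 and 1.09 for Cdk1. The part of measurement error in the spread was not tested. The median SD was 0.24 over the members and 0.22 over all features.

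Cdk1 read -3.25, -2.41, -4.09 and -4.11 in untreated replicates 1 to 4 and -4.12, -3.90, -3.88 and -4.22 at day 1. At day 2 it read -2.27, -1.21, -3.46 and -3.86, and at day 5 -3.51, -2.76 and -3.51. The day 1 samples were close together and low, and every day 2 sample was above every day 1 sample. Day 2 minus day 1 was 1.33 ± 0.47 (SE), with a limma adjusted p of 0.245. Untreated, day 2 and day 5 samples overlapped.

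Cenpk followed a similar order. Its values were -2.84, -1.74, -3.52 and -3.82 in untreated blood, -2.77, -2.87, -3.00 and -3.38 at day 1, -1.49, -1.65, -2.54 and -2.68 at day 2, and -2.04, -1.77 and -2.58 at day 5. All day 2 samples were above all day 1 samples, and the untreated samples overlapped with every other group. Day 2 minus day 1 was 0.92 ± 0.38 (SE; limma adjusted p = 0.347), and day 2 minus untreated 0.89 ± 0.38 (adjusted p = 0.142). The second of these passed with quantile normalization (adjusted p = 0.0215), with the replicate number as a block (0.0254), without untreated replicate 2 (0.0136) and in both alternatives chosen after seeing the data (0.036 and 0.048).

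Cdc20 and Bub1b were lowest on average at day 1. Cdc20 read -1.15, -0.82, -0.89 and -1.22 in untreated blood and -1.75, -2.68, -1.76 and -2.51 at day 1, so those 2 groups did not overlap. It then read -1.15, 0.03, -3.08 and -2.68 at day 2, and -1.61, 0.41 and -1.55 at day 5. Day 2 held both the lowest value and one near marrow level, and 1 of 3 day 5 samples was above 0. The day 1 difference from untreated was -1.15 ± 0.56 (SE) and did not pass (limma adjusted p = 0.258); with only those 2 groups in the fit it did (adjusted p = 0.0163).

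Bub1b, whose protein delays anaphase until chromosomes are attached, read -0.11, -0.23, -1.68 and -1.42 in untreated blood and -1.24, -2.76, -1.28 and -2.02 at day 1. The day 2 values were -0.22, -0.83, -1.84 and -1.55, and the day 5 values -1.27, -0.78 and -0.78. All groups overlapped with the untreated one, in which replicates 1 and 2 were near marrow level and replicates 3 and 4 well below it. Day 1 minus untreated was -0.97 ± 0.42 (SE; limma adjusted p = 0.197).

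Kif11, the kinesin that pushes the spindle poles apart, was split the same way: -0.09, 0.05, -0.77 and -2.20 in untreated blood and 0.18, 0.10, -0.86 and -1.24 at day 2. It read -0.86, -0.31, -1.70 and -1.52 at day 1 and -0.48, -0.87 and -0.09 at day 5. In untreated and in day 2 blood, replicates 1 and 2 were above replicates 3 and 4 for Kif11, Cdk1, Cenpk and Bub1b alike. The labels do not say whether replicates with the same number belong together across groups, and they were not paired here. Untreated replicate 2 and day 2 replicate 1, which had narrow ratios, were both on the higher side of this split. Day 2 replicate 2 was on that side too, with a wide interquartile range of 0.67. The part of narrow ratios in the split was not tested.

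**Figure D1:**
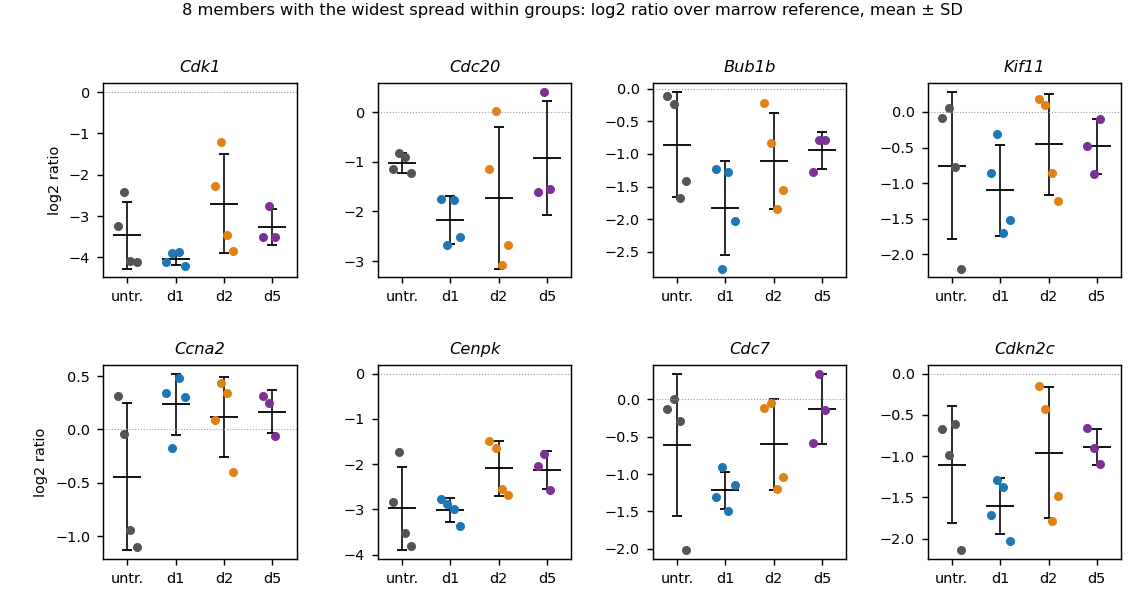
Log2 ratio of blood leukocytes over marrow (vertical axis, its own scale for each gene) in every sample of the untreated (untr.), day 1 (d1), day 2 (d2) and day 5 (d5) groups, for the 8 members with the widest spread within groups; bars are the mean ± SD. Cdk1 at day 1 is confined to -4.22 to -3.88, while at day 2 it runs from -3.86 to -1.21.

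Ccna2, cyclin A2, the partner of CDKs in DNA copying and early mitosis, read 0.31, -0.04, -0.95 and -1.10 in untreated blood and 0.34, -0.18, 0.48 and 0.31 at day 1. It stayed between -0.40 and 0.43 at day 2 and between -0.06 and 0.31 at day 5. Untreated replicates 3 and 4 were the lowest of the 15 samples. Day 1 minus untreated was 0.68 ± 0.28 (SE; limma adjusted p = 0.168) and day 5 minus untreated 0.61 ± 0.30 (adjusted p = 0.304). Cdk1, its kinase partner in mitosis, had the opposite sign at day 1, -0.56 ± 0.47 (SE).

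Among the cyclins and kinases of the first gap phase, Ccndbp1, a protein that binds D-type cyclins, was the one that changed. It read 0.31, 0.44, 0.97 and 1.15 in untreated blood, 0.15, 0.06, 0.18 and 0.30 at day 1, 0.12, -0.08, -0.07 and 0.03 at day 2, and 0.96, 0.65 and 1.51 at day 5. All day 1 and day 2 samples were below all untreated samples, and all day 5 samples above all of day 1 and day 2. Ccnd3, the D-type cyclin best known in lymphocytes, had means of -0.80 ± 0.03 (SD, n = 4) in untreated blood and -0.42 ± 0.16 (SD, n = 4) at day 1. Its groups did not overlap between these times, but the difference of 0.39 ± 0.15 (SE) did not pass (limma adjusted p = 0.156); it did with array weights (adjusted p = 0.034). Cdk6, a kinase that D-type cyclins activate, had group means between -0.94 and -0.56.

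Of the CDK inhibitors, Cdkn2c had means of -1.10 ± 0.71 in untreated blood, -1.60 ± 0.34 at day 1, -0.96 ± 0.79 at day 2 and -0.89 ± 0.22 at day 5 (SD, n = 4, 4, 4 and 3). All day 5 samples were above all day 1 samples. Cdkn2d, of the same family, stayed between 0.10 and 0.37 in its group means. Neither passed in any comparison.

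The 2 genes of replication licensing and origin firing behaved differently from each other. Cdc6, which loads the helicase at origins, read -0.84, -0.72, -1.53 and -1.38 in untreated blood, -0.85, -0.87, -0.64 and -0.60 at day 1, -0.08, -0.89, -0.12 and -0.78 at day 2, and -1.72, -0.93 and -1.49 at day 5. All day 5 samples were below all samples of days 1 and 2. Cdc7 read -0.13, 0.01, -0.29 and -2.02 in untreated blood, -1.31, -0.91, -1.49 and -1.15 at day 1, -0.12, -0.05, -1.20 and -1.04 at day 2, and -0.58, 0.34 and -0.15 at day 5. Its day 1 and day 5 samples did not overlap, day 5 being the higher, by 1.09 ± 0.42 (SE; limma adjusted p = 0.08).

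**Figure D2:**
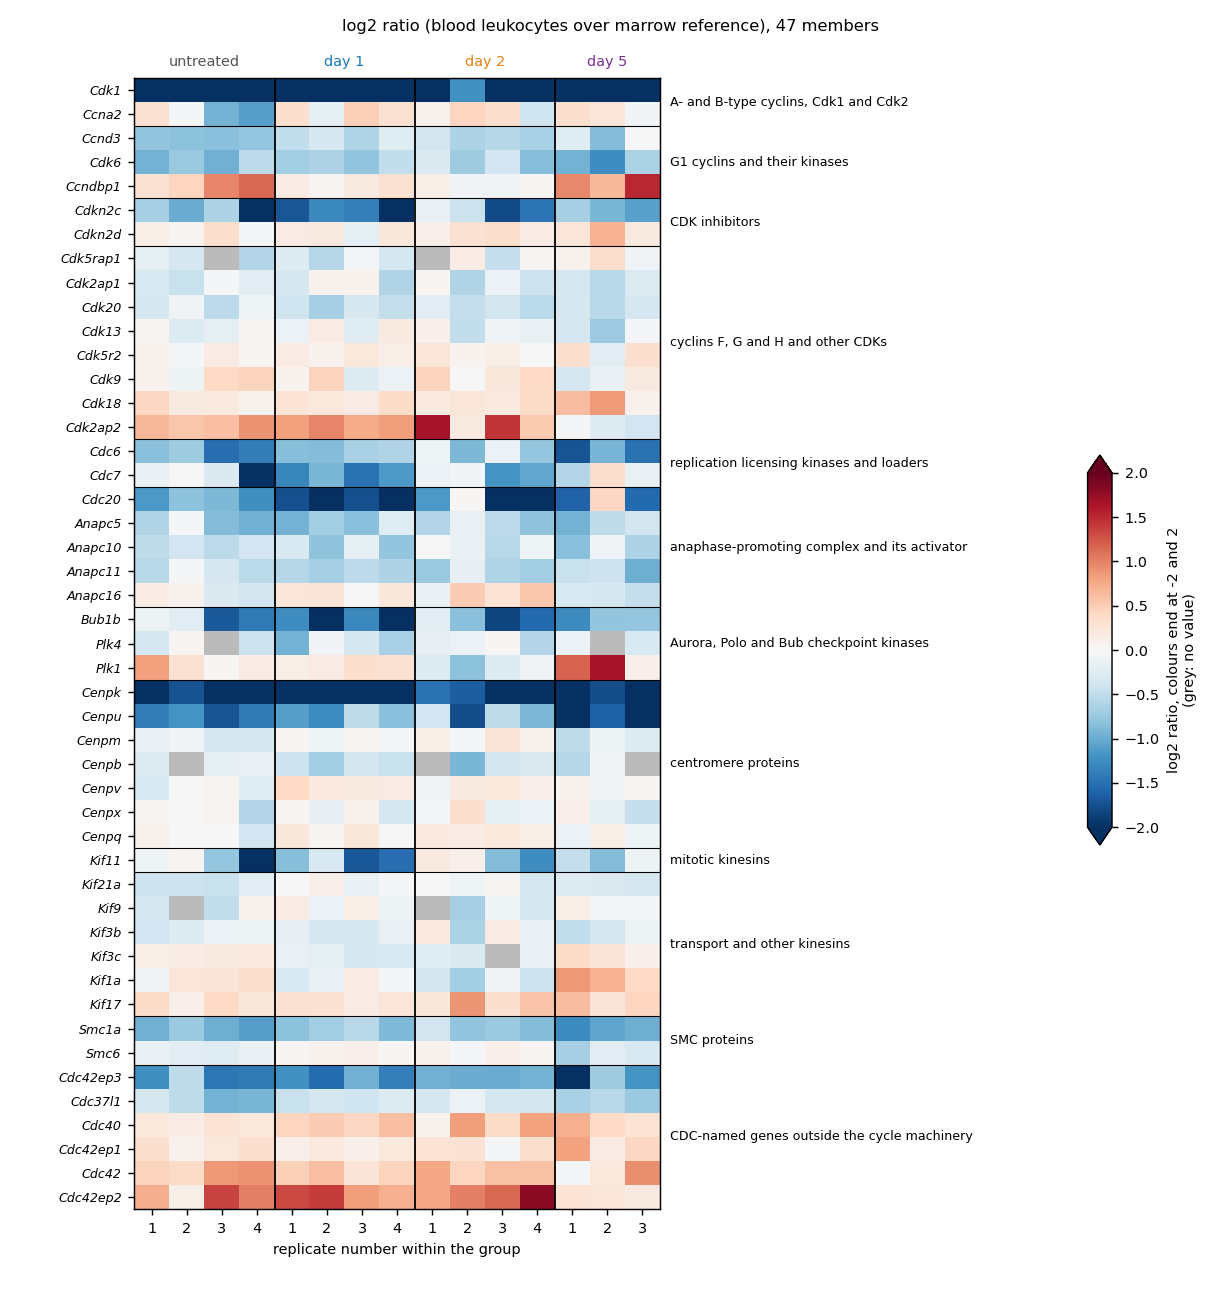
Log2 ratio of blood leukocytes over marrow for the 47 members (rows, grouped by role) in the 15 samples (columns, by group and replicate number); blue is below and red above marrow, colours end at -2 and 2, and grey marks no value. Cdk1 and Cenpk stay blue in every sample, Plk1, Kif1a, Kif3c and Ccndbp1 have their highest means at day 5, and Cdk2ap2 is below 0 in every day 5 sample and in no other.

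At day 1 after the drug, a single member passed the test against untreated blood. Kif3c, a motor subunit of the kinesin-2 family that carries cargo along microtubules, read 0.13, 0.14, 0.18 and 0.19 in untreated blood and -0.14, -0.18, -0.32 and -0.31 at day 1. The samples did not overlap. Kif3c fell by 0.40 ± 0.09 (SE; limma adjusted p = 0.0326). Its technical replicates differed by a median of 0.19 in the 12 samples with both. With technical replicate 1 alone the change was -0.265 (limma adjusted p = 0.208). With technical replicate 2 alone it was -0.54 (adjusted p = 0.0525). Kif3c was 1 of 47 members called, or 2.13%, against 4.60% of all tested features (2.32% lower and 2.29% higher). A call means a Benjamini-Hochberg adjusted p under 0.05 over all 6515 features. The median change was -0.01 over the members and 0.03 over all features.

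Several members lay apart at day 1 without passing. Groups did not overlap for 9 members (19.1%), against 18.3% of features: Ccnd3, Cdc40, Cenpv, Kif21a and Smc6 were higher, and Ccndbp1, Cdc20, Cenpb and Kif3c lower. Kif21a, a kinesin that restrains microtubule growth, came closest, with 0.37 ± 0.10 (SE; limma adjusted p = 0.0559), followed by Cenpv, a centromere protein, with 0.36 ± 0.11 (adjusted p = 0.0709). The call of Kif3c was lost without any 1 of the 4 untreated samples or without day 1 replicate 1, 2 or 4, where its adjusted p lay between 0.0526 and 0.089. The count was 2 without day 1 replicate 3 or day 2 replicate 4, and quantile normalization gave 3 calls, 2 higher and 1 lower.

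At day 2 after the drug, 3 members passed the test, all of them lower. Against untreated blood, Kif1a, a kinesin known for carrying vesicles in nerve cells, fell by 0.58 ± 0.15 (SE; limma adjusted p = 0.0197). Ccndbp1 fell by 0.72 ± 0.19 (adjusted p = 0.0221) and Kif3c by 0.38 ± 0.10 (adjusted p = 0.0233). These 3 of 47 (6.38%) compare with 12.7% of all features called, 7.84% lower and 4.83% higher. At an unadjusted p under 0.05 there were 12 of 47 members, 8 higher and 4 lower. Of all 6515 features, 1740 were under the same limit, 934 higher and 806 lower. The median change was 0.14 over the members against 0.06 over all features.

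Kif1a read -0.06, 0.24, 0.26 and 0.36 in untreated blood, -0.30, -0.15, 0.16 and -0.04 at day 1, -0.36, -0.68, -0.06 and -0.41 at day 2, and 0.86, 0.69 and 0.40 at day 5. Untreated replicate 1 lay level with the highest day 2 sample, and every day 5 sample was above all others. Kif3c at day 2 read -0.25, -0.28 and -0.14, with no value in replicate 3, all below the untreated samples. The day 2 values of Ccndbp1, given above, were likewise all below untreated. The 8 members whose groups did not overlap (17.0%, against 21.4% of features) also held Plk1, the Polo kinase of mitotic entry, which was lower by 0.67 ± 0.27 (SE) but did not pass (limma adjusted p = 0.113).

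No member was called higher at day 2 in the main fit, but several alternatives gave calls in that direction. Cdc37l1, a relative of the Hsp90 partner Cdc37, had a change of 0.39 ± 0.13 (SE; limma adjusted p = 0.0686), Cenpm, a centromere subunit, 0.31 ± 0.11 (adjusted p = 0.0734) and Cdc6 0.65 ± 0.23 (adjusted p = 0.0744). With quantile normalization 9 members passed, 6 higher and 3 lower, and with the spread of ratios made equal between samples 11 passed, 7 higher and 4 lower. The sample as a random effect gave 4 calls higher and 2 lower, and technical replicate 1 alone gave 2 higher and 2 lower. The count was 0 without untreated replicate 3 or 4 and 5 without untreated replicate 2; without untreated replicate 3 the adjusted p was 0.0512 for Kif1a, 0.052 for Kif3c and 0.0695 for Ccndbp1. Without day 2 replicate 2 none of the 3 passed, and 2 other members, Cdc6 and Cenpu, did so as higher. Without day 2 replicate 3, Kif1a and Kif3c passed and Ccndbp1 did not (adjusted p = 0.0541).

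Between days 1 and 2 no member passed. With limma, 0 of 47 were called, against 1.15% of features (0.537% higher), and the count called was 0 in all 28 alternatives. An unadjusted p under 0.05 was found for 4 of 47 members, against 760 of 6515 features. Groups did not overlap for 3 members (6.38%, against 9.21% of features), with Cdk1 and Cenpk higher at day 2 and Plk1 lower. Plk1 read 0.12, 0.17, 0.33 and 0.31 at day 1 and -0.25, -0.82, -0.25 and -0.06 at day 2, a change of -0.58 ± 0.27 (SE; limma adjusted p = 0.413).

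By day 5 the members called at day 2 were no longer below untreated blood. Against untreated samples limma called 0 of 47 members, where 1.09% of features were called. An unadjusted p under 0.05 was found for 5 of 47 members, 4 higher and 1 lower. It was found for 1134 of 6515 features, 601 higher and 533 lower. Kif1a was 0.45 ± 0.16 (SE) above untreated (adjusted p = 0.189), with no overlap between the groups. Ccndbp1 was 0.32 ± 0.21 and Kif3c 0.09 ± 0.10 above it (SE). Cdk5rap1, an enzyme that modifies mitochondrial transfer RNA, was 0.48 ± 0.19 (SE) above (adjusted p = 0.226), also without overlap. Groups did not overlap for 3 members (6.38%, against 13.6% of features), the third being Cdk2ap2.

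The lowest adjusted p at day 5 against untreated was that of Cdk2ap2, a protein that binds Cdk2. It read 0.66, 0.55, 0.61 and 0.90 in untreated blood, 0.82, 0.98, 0.75 and 0.83 at day 1, 1.65, 0.17, 1.43 and 0.52 at day 2, and -0.04, -0.26 and -0.39 at day 5. Every day 5 sample was below every other sample. The difference from untreated was -0.91 ± 0.26 (SE) and did not pass (limma adjusted p = 0.113). It passed with the sample as a random effect over all columns (adjusted p = 0.00305), with only the 2 groups in the fit (0.0251) and without day 2 replicate 2 (0.0466). Member calls against untreated numbered 1 without day 5 replicate 2 and 2 without day 5 replicate 3, and Cdk2ap2 was not among them. Without day 5 replicate 3, Plk1 was called higher, by 1.08 (limma adjusted p = 0.0281).

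Day 5 against day 2 gave the most member calls of the 6 comparisons. Of 47 members 12 passed (25.5%), the same share as among all features (25.5%). Higher at day 5 were 4 (8.51%, against 12.8% of features): Plk1, Ccndbp1, Kif1a and Kif3c. Lower were 8 (17.0%, against 12.7%): Cdk2ap2, Cenpu, Cdc42ep2, Cdc6, Anapc16, Smc6, Smc1a and Cenpm. The 12 came from 9 of the 12 roles with a tested member. The A-type cyclin and Cdk1, the CDK inhibitors and the mitotic kinesin had none.

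Plk1 had the largest change of all members between days 2 and 5. It read 0.82, 0.31, 0.02 and 0.16 in untreated blood and 1.17, 1.65 and 0.10 at day 5, against -0.82 to -0.06 at day 2. Day 5 replicate 3 was the lowest of its group, and still above all day 2 samples. Plk1 rose by 1.32 ± 0.29 (SE; limma adjusted p = 0.00316). The other kinases of its group did not pass: Bub1b was at 0.16 ± 0.45 and Plk4, which starts centriole copying, at -0.00 ± 0.23 (SE).

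Both transport motors rose. Kif1a was higher at day 5 than at day 2 by 1.03 ± 0.16 (SE; limma adjusted p = 2.62e-04), the lowest adjusted p among the members, and Kif3c, at 0.37, 0.26 and 0.11, by 0.47 ± 0.11 (adjusted p = 0.00546). Of the 4 other transport and related kinesins tested, none passed: Kif9, a kinesin of motile cilia, was at 0.39 ± 0.17 (SE; adjusted p = 0.116), and Kif17, Kif3b and Kif21a had changes between -0.20 and -0.07. Ccndbp1 rose by 1.04 ± 0.21 (SE; adjusted p = 0.00171).

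Cdk2ap2 fell the most, by 1.17 ± 0.26 (SE; limma adjusted p = 0.00401). Its relative Cdk2ap1 had a change of -0.12 ± 0.19 (SE). Cdc42ep2, which binds the GTPase Cdc42 and shapes the actin skeleton, read 0.77, 1.00, 1.15 and 1.80 at day 2 and 0.28, 0.25 and 0.19 at day 5, and fell by 0.94 ± 0.27 (SE; adjusted p = 0.0178). The groups did not overlap. Its relatives Cdc42ep1 and Cdc42ep3 and Cdc42 itself did not pass.

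Of the 7 centromere genes tested, 2 passed, both lower at day 5. Cenpu read -0.39, -1.78, -0.51 and -0.90 at day 2 and -1.99, -1.63 and -2.05 at day 5. Day 2 replicate 2 lay among the day 5 samples. Cenpu fell by 0.99 ± 0.27 (SE; limma adjusted p = 0.0135). Cenpm read 0.11, -0.02, 0.26 and 0.06 at day 2 and -0.50, -0.11 and -0.27 at day 5, without overlap. It fell by 0.39 ± 0.12 (SE, limma adjusted p = 0.0231). The other 5 tested centromere genes did not pass, and Cenpk was at -0.04 ± 0.41 (SE).

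Cdc6 fell by 0.92 ± 0.25 (SE, limma adjusted p = 0.0123), while the origin-firing kinase Cdc7 was at 0.475 ± 0.42 (SE) and did not pass. Smc6, of the SMC ring that takes part in DNA repair, read 0.09, -0.03, 0.11 and 0.02 at day 2 and -0.67, -0.22 and -0.30 at day 5. It fell by 0.44 ± 0.11 (SE; adjusted p = 0.00791). Smc1a, a core part of the cohesin ring, read -0.37, -0.79, -0.74 and -0.87 at day 2 and -1.27, -1.06 and -0.98 at day 5. Its groups did not overlap either, and it fell by 0.41 ± 0.14 (SE; adjusted p = 0.0385).

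Within the anaphase-promoting complex only Anapc16, one of its small subunits, passed. It read 0.15, 0.09, -0.29 and -0.37 in untreated blood, 0.25, 0.25, 0.01 and 0.22 at day 1, -0.14, 0.51, 0.28 and 0.53 at day 2, and -0.31, -0.31 and -0.48 at day 5. All day 5 samples were below all of days 1 and 2, and the untreated samples were split. Anapc16 fell by 0.66 ± 0.17 from day 2 to day 5 (SE; limma adjusted p = 0.00853). The scaffold subunit Anapc5, the substrate-binding Anapc10 and the catalytic RING subunit Anapc11 had changes between -0.31 and -0.07, and Cdc20 one of 0.80 ± 0.61 (SE).

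Some of these calls rested on 1 sample. Without day 5 replicate 1 the count was 8, and the limma adjusted p was 0.0745 for Cdc6, 0.054 for Cenpu, 0.122 for Cenpm and 0.157 for Smc1a. Smc1a was also lost without day 5 replicate 2 (0.069) or day 2 replicate 1 (0.105) or 3 (0.0604), Cenpm without day 2 replicate 3 (0.068) and Cdc42ep2 without day 2 replicate 4 (0.0512). The calls of Kif1a, Ccndbp1, Plk1, Anapc16 and Cdk2ap2 held in all 28 alternatives. With only the 2 groups in the fit 7 members passed.

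**Figure D3:**
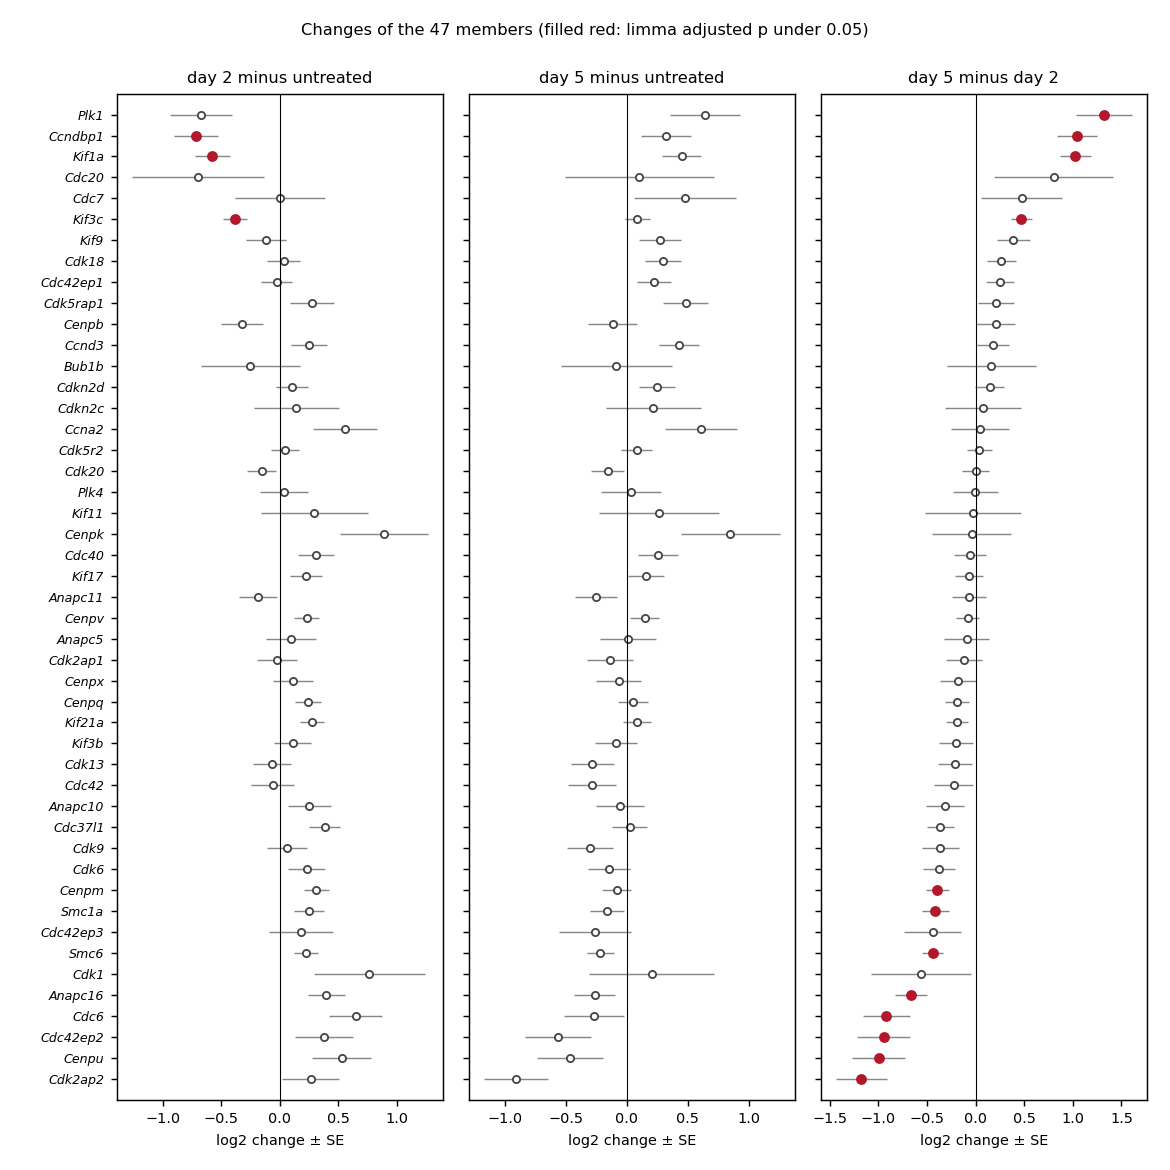
Log2 change ± SE (horizontal axis) of the 47 members (vertical axis, in the order of day 5 minus day 2) for day 2 minus untreated, day 5 minus untreated and day 5 minus day 2; filled red points have a limma adjusted p under 0.05. The panels hold 3, 0 and 12 red points, and the changes in the third run from -1.17 for Cdk2ap2 to 1.32 for Plk1.

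Day 5 against day 1 gave fewer calls. It called 8 members (17.0%), against 18.8% of features. Higher at day 5 were 3 (6.38%, against 9.67%): Ccndbp1 by 0.87 ± 0.21, Kif1a by 0.73 ± 0.16 and Kif3c by 0.49 ± 0.10 (SE), with limma adjusted p of 0.00971, 0.00667 and 0.0053. Lower were 5 (10.6%, against 9.09%). Cdk2ap2 fell by 1.08 ± 0.26, Cenpu by 0.96 ± 0.27, Cdc42ep2 by 0.83 ± 0.27, Anapc16 by 0.55 ± 0.17 and Smc6 by 0.45 ± 0.11 (SE; adjusted p = 0.0115, 0.0237, 0.0436, 0.0329 and 0.0115). Plk1 was at 0.74 ± 0.29 (SE; adjusted p = 0.0824).

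Day 1 and day 5 samples did not overlap for 19 members (40.4%, against 30.5% of features), and for 13 (27.7%, against 30.4%) between days 2 and 5. The 8 members higher at day 5 than at day 1 by this measure included Cdk1, Cenpk, Cdc7, Cdc20 and Cdkn2c, none of which passed the test. With only those 2 groups in the fit, 12 members passed, 7 higher and 5 lower, and Cdk1, Cenpk, Cdc7 and Cdkn2c were among them. Cdc7 also passed without untreated replicate 4, with quantile normalization and with a random effect for the sample. Without day 5 replicate 1 only 4 members were called between days 1 and 5; the adjusted p was then 0.0589 for Smc6, 0.0795 for Cenpu, 0.0697 for Anapc16 and 0.0985 for Cdc42ep2. Cenpu, Anapc16 and Cdc42ep2 were each also lost without several other single samples, with adjusted p up to 0.119.

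Over all 4 groups the moderated F test called 9 members (19.1%), against 22.7% of features. They were Kif1a, Kif3c, Ccndbp1, Cdk2ap2, Smc6, Plk1, Anapc16, Cenpu and Cdc6, with limma adjusted p from 0.00167 for Kif1a to 0.0404 for Cdc6. The count was 4 without day 5 replicate 1 and 6 without day 5 replicate 3.

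**Figure D4:**
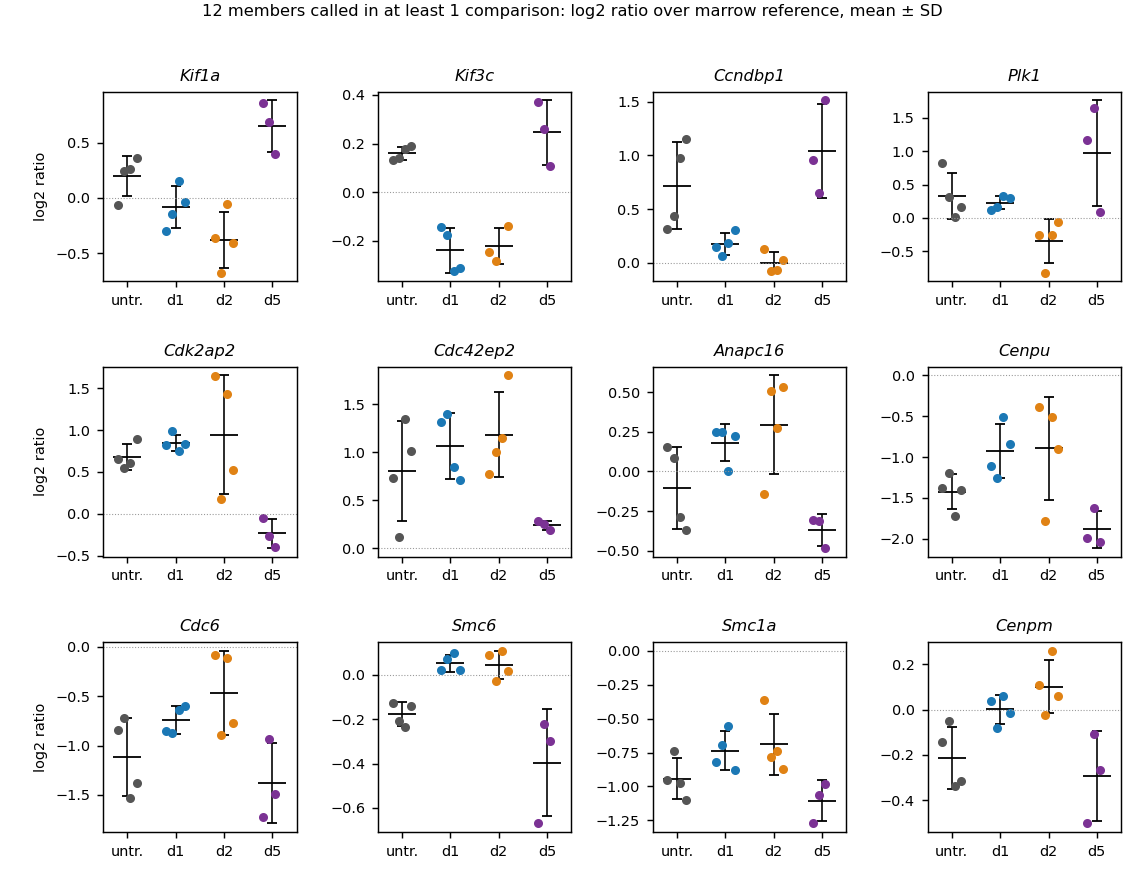
Log2 ratio of blood leukocytes over marrow (vertical axis, its own scale for each gene) in every sample of the untreated (untr.), day 1 (d1), day 2 (d2) and day 5 (d5) groups, for the 12 members called in at least 1 comparison; bars are the mean ± SD. The top row is highest at day 5 and lowest at day 1 or day 2, and the other 8 genes are lowest at day 5.

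Some cell type markers moved at the same times. From day 2 to day 5, 4 of 5 mature neutrophil markers were called lower and 4 of 4 monocyte markers higher. Of the platelet markers 0 of 5 were called, and of the neutrophil precursor markers 0 of 3. Among all features 12.8% were called higher and 12.7% lower. The mean over the neutrophil markers of a sample ran from 0.35 to 1.18 at day 2 and from -1.13 to -0.59 at day 5, and that over the monocyte markers from -0.24 to -0.15 and from 0.63 to 0.88. Against untreated blood, 5 of 5 neutrophil markers were higher and 4 of 4 monocyte markers lower at day 2. Of the B cell markers 3 of 4 were called lower between days 2 and 5, as were 1 of 3 natural killer cell and 1 of 2 T cell markers.

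One erythroid marker had the order of group means of Kif1a and Ccndbp1, lowest at day 2 and highest at day 5. Alas2, the first enzyme of haem synthesis in red cell precursors, had means of 0.10 ± 0.58, -1.30 ± 0.46, -2.73 ± 0.94 and 0.84 ± 0.48 in the untreated, day 1, day 2 and day 5 groups (SD, n = 4, 4, 4 and 3). It rose by 3.57 ± 0.43 from day 2 to day 5 (SE; limma adjusted p = 3.01e-05). Hba-a1, the other erythroid marker tested, had group means between -1.17 and -0.85. The part of these cell types in the members' changes was not tested.

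Other genes of cell division were taken from a list of 78, of which 55 were on the array and 25 could be tested. Like the members, they read low in untreated blood, with a median of -1.09. At day 1 against untreated, Zwint, which links the kinetochore to the checkpoint, was the 1 called, at 0.93 higher. Of all features, 4.60% were called then. At day 2 the list had 1 call higher, Cks2, a small CDK-binding protein, and 2 lower, Nusap1, a spindle protein, and Rb1, the retinoblastoma brake on the cycle. Among all features 4.83% were called higher and 7.84% lower at day 2. At day 5 against untreated the list had 0 calls in limma, where 1.09% of features were called.

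Between days 2 and 5 the list of 25 had 3 calls higher and 2 lower. Of all features, 12.8% were called higher and 12.7% lower. Ube2c, the ubiquitin-conjugating enzyme that works with the anaphase-promoting complex, rose by 2.31 ± 0.58, Nusap1 by 1.90 ± 0.38 and Rb1 by 0.57 ± 0.13 (SE; limma adjusted p = 0.00958, 0.00184 and 0.00372). Cks2 fell by 0.74 ± 0.19 and Incenp, of the chromosomal passenger complex, by 0.72 ± 0.25 (SE; adjusted p = 0.0099 and 0.0463). Between days 1 and 5, 4 of the 25 were called, all higher. Among all features 18.8% were called, 9.67% of them as higher and 9.09% as lower. The 4 were genes of mitosis and rose by 1.95 to 2.27: Nusap1, Ube2c, Cdca8 of the passenger complex, and Sgo1, which protects cohesion at centromeres. The median change over the list was 0.01 from day 2 to day 5, against -0.07 over all features.

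The 57 members that were not tested had too few values. In 18 of them no sample had one, Aurka, the kinase of the spindle poles, among them. A further 17 had values in 1 to 3 samples, such as Ccnb2, a B-type cyclin, with 1, and 22 had values in 4 to 12. Bub1, a checkpoint kinase, had values in 12 samples, from -0.66 to 0.08, but in too few of the day 2 group. Aurkb, the kinase of the passenger complex, had values in 5 samples, and Cenpa, the histone that marks the centromere, and Kif23, a motor of cell separation, in 8 each. The reason for an empty value is not stated, so nothing is said of these genes' levels.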

How the data were processed

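The deposited values are log ratios, taken here as log2, of Cy5 (blood) over Cy3 (marrow) for each probe in each column, as the authors' labels name the dyes. How they were scanned, normalized and filtered, and their log base, is not stated; base e is possible. The 30 columns are 15 samples with 2 technical replicates each (r between 0.829 and 0.957), which were averaged. Only the 10032 probes with 1 symbol in the platform annotation were named, and probes of a gene were averaged.

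Groups were compared with limma 3.58.1 (R 4.3.3; lmFit, then eBayes), fitting a mean for each group to all 15 samples, and Benjamini-Hochberg adjustment over 6515 features per comparison, checked on simulated data. Changes are the first-named group minus the second. The number of arrays limits the precision.

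The members, lists and promoter letters were chosen with earlier results of these data known. The genes named were every member called, the 3 largest changes each way for each day against untreated, and the classic mitotic regulators; further members named beside them were chosen after their values were seen. The 104 symbols matched RefSeq by gene identifier. Same-numbered samples of different groups had deviations correlating between -0.28 and 0.17, and the numbers were not used to pair samples. With so few samples per group this cannot settle whether a number marks a shared batch, which the labels do not state. Alternatives covered normalization, technical replicates, filters, weights, the samples in the fit and each sample left out.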

Additional observations from a re-analysis of the deposited data

Results flagged for a closer look

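In 59 checks of a named member within a group of 4 samples, 2 had a sample far from the other 3 by Dixon's test; chance gives about 1 in 20. Anapc16 at day 1 read 0.0058 in replicate 3, with the nearest other sample at 0.22. Cdc7 in untreated blood read -2.02 in replicate 4, with the nearest at -0.29.

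The other results picked out are the 12 members whose effect differed between day 2 and day 5 in the limma test of that difference (adjusted p between 2.62e-04 and 0.0385). All 12 had opposite signs against the shared untreated samples at these times. These signs follow in part from the choice of members, since both effects subtract the same untreated mean, and are no separate evidence. Against untreated blood, 3 of the 12 passed at day 2 (Ccndbp1, Kif1a and Kif3c) and 0 at day 5. Plk1 went from -0.67 at day 2 to 0.64 at day 5 (difference 1.32), Ccndbp1 from -0.72 to 0.32 (1.04), Kif1a from -0.58 to 0.45 (1.03) and Kif3c from -0.38 to 0.09 (0.47). Cdk2ap2 went from 0.27 to -0.91 (difference -1.17), Cenpu from 0.53 to -0.46 (-0.99), Cdc42ep2 from 0.38 to -0.57 (-0.94) and Cdc6 from 0.65 to -0.27 (-0.92). The differences were smaller for Anapc16 (0.40 and -0.26, difference -0.66), Smc6 (0.22 and -0.22, -0.44), Smc1a (0.25 and -0.16, -0.41) and Cenpm (0.31 and -0.08, -0.39).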

How the results depend on the processing

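No pairwise call or other named value counted here switched sign under any of the 28 alternatives. The direction of the members called did vary. Without day 2 replicate 2, day 2 against untreated gave 2 calls higher and 0 lower, where the main fit gave 0 and 3. Of 24 pairwise calls of named members 7 held in every alternative: Kif1a and Ccndbp1 between days 1 and 5, and Kif1a, Ccndbp1, Plk1, Anapc16 and Cdk2ap2 between days 2 and 5. The other 17 were lost in at least 1, and 7 of 17 named values that had not passed did so in at least 1. The cause of these changes was not tested.

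Members called for day 1 against untreated (1) numbered 3 with quantile normalization, 0 with either technical replicate alone, 2 with the sample as a random effect, 4 with array weights, 4 with only the 2 groups in the fit, and 0 to 2 with single samples left out. Those for day 2 against untreated (3) numbered 9 with quantile normalization, 6 with the random effect and 0 to 5 with samples left out; for day 5 against untreated (0) they numbered 3 with the random effect, 1 with only the 2 groups and 0 to 2 with samples left out. Day 5 against day 1 (8) gave 4 to 9 and day 5 against day 2 (12) gave 8 to 15 with samples left out, and 12 for the former (7 higher, against 3) and 7 for the latter with only the 2 groups. The F test (9) gave 14 with the random effect and 4 to 12 with samples left out. The median change from day 2 to day 5 (-0.07) was -0.16 with technical replicate 1 alone and -0.16 to 0.012 with samples left out.

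A pair of alternatives was chosen after seeing the data. With the spread of ratios made equal, 3 members were called at day 1 and 11 at day 2; without the 3 samples of narrowest ratios, 0 were called at day 1 and 3 at day 2, Anapc16 and Cenpk as higher and Ccndbp1 as lower.

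With the replicate number as a block, 0 members were called at day 1 against untreated and 5 for day 5 against day 1; 4, 0, 0 and 12 were called for day 2 and day 5 against untreated, day 2 against day 1 and day 5 against day 2. The labels give same-numbered samples nothing in common but the number. Kif3c, which lacks a value in 1 sample, has no value under the filter for complete features, and the F test none with only 2 groups.

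Signal over background is not given in the deposited values, so how far low signal limits these genes is unknown. The day 5 group has 3 samples.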
